A study of Mus musculus with 8 samples.

Results

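The regions described here are the NF-YA CUT&RUN peaks whose signal was lower in muscle stem cells (MuSCs) without TAF4A than in control MuSCs. A peak belonged to this set if its mean over the 4 NF-YA libraries exceeded 10 and the mean of the Taf4asKO libraries divided by the mean of the control libraries was below 1/1.5. The rule was met by 453 of 7196 peaks, or 9.66% of the 4689 peaks with a mean above 10, while 549 peaks had a ratio above 1.5 and are called higher peaks below. The peaks were thus chosen by the same genotype ratio that their values show, so that these values are a description and carry no test.

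Control and Taf4asKO MuSCs were from C57BL/6 mice and were cultured and activated, that is proliferating, when harvested. In Taf4asKO mice, Pax7CreERT, a tamoxifen-dependent Cre driven by the MuSC gene Pax7, removes exons 11 and 12 of a floxed Taf4a (Taf4 in the annotation). The control mice are called control in the genotype label and WT in the sample titles, and by the study's description of its mice they too carried the floxed Taf4a, with or without the Cre allele. The labels give 8 libraries in 4 groups of 2, NF-YA and IgG for each genotype. No IgG library was used here. Littermates served as controls in the study. Whether the 2 libraries of a genotype came from separate animals is not stated outright in the sources used here, so that their spread may be technical. Each value is a read number that was normalised across libraries and rounded by the authors.

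NF-Y is a trimeric transcription factor whose NF-YA subunit makes the sequence-specific contact with CCAAT, a pentamer found upstream of many cell cycle, histone and housekeeping genes. TAF4A is a subunit of TFIID, the general factor that contains the TATA-binding protein TBP and nucleates the transcription machinery at gene starts. In CUT&RUN an antibody brings micrococcal nuclease to its target on native chromatin, and the released fragments are sequenced. CAGCTG is one form of the E-box CANNTG, to which myogenic factors such as MyoD bind.

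The sequences below show the kinds of site in the set, all on the plus strand of GRCm38 (mm10), either the whole peak or its central part. The first 4 lie at gene starts and hold CCAAT or its reverse complement, in capitals.
Lgals1 start, chr15:78926372-78926571: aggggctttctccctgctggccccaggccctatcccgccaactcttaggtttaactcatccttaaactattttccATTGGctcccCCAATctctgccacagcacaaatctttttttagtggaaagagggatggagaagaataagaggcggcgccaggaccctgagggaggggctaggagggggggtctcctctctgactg
Tomm40 start, chr7:19715645-19715844: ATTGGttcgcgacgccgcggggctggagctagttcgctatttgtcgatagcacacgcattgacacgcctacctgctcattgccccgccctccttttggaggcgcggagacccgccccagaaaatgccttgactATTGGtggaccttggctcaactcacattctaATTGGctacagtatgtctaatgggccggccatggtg
Hist1h2bl start, chr13:21716170-21716369: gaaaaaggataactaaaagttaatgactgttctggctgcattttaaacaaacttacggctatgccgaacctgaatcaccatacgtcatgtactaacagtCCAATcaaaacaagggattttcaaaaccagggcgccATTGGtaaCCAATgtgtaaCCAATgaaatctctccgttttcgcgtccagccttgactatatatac
Myod1 start, chr7:46376369-46376488: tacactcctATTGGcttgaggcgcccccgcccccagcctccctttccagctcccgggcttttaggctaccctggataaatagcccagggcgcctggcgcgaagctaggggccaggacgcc
The next 6 lie away from starts. Capitals mark CCAAT and CAGCTG on either strand. CCAAT stands without CAGCTG in the first 4 of them, both motifs stand in the Mymk intron, and CAGCTG without CCAAT in the Mb intron.
Upstream of Myod1, chr7:46337430-46337629: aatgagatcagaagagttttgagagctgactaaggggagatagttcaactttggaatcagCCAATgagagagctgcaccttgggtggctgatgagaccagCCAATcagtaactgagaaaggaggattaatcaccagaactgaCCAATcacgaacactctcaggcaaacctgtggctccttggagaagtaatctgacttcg
Intergenic, chr17:31930021-31930220: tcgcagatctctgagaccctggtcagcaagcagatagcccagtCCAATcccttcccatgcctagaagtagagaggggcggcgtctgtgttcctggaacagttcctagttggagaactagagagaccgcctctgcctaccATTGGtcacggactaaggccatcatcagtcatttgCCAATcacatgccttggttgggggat
Mfng intron, chr15:78763680-78763878: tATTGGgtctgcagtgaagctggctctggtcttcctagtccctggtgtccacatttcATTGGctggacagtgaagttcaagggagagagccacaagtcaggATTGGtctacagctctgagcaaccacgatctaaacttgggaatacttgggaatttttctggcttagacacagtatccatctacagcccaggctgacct
Mycl intron, chr4:122998676-122998791: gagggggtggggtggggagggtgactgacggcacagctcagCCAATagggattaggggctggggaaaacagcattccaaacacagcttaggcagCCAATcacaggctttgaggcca
Mymk intron, chr2:27069801-27069963: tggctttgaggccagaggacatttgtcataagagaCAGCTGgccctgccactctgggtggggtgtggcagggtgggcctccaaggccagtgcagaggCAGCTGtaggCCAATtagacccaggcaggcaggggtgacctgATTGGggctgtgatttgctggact
Mb intron, chr15:77018071-77018230: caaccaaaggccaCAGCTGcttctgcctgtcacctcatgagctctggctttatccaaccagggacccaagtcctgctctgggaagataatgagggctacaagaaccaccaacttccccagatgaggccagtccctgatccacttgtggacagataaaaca
The last 3 hold neither motif. They are a coding exon of Taf4, an exon of Tbp with adjoining intron bases, and an intergenic run of telomere-like repeats in which capitals mark CCCTAA.
Taf4 exon 8, chr2:179929309-179929394: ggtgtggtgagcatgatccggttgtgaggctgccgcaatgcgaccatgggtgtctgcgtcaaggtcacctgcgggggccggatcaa
Tbp exon 8, chr17:15515630-15515729: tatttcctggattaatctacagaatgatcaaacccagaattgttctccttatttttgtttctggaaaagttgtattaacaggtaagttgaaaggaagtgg
Repeat on chromosome 2, chr2:166441904-166441982: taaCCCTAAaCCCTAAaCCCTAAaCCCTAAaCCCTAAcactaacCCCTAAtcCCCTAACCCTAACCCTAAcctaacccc

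Most lower peaks were weak. The lower peaks had a median value of 28 and 29 in control replicates 1 and 2 and of 14 in both Taf4asKO libraries. Of the 453 peaks, 220 had a mean between 10 and 20, 140 between 20 and 50, 49 between 50 and 100 and 44 above 100. The lower peaks made up 15.8% of all peaks in the weakest of these classes and 4.55% in the strongest. The median ratio of all peaks also differed between these classes, with 1.09 in the weakest and 0.856 in the strongest. The median ratio of the set was 0.554, against 0.957 for all peaks above the minimum. A ratio below 1/2 was seen in 147 peaks and a ratio below 1/3 in 41.

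The control values of a lower peak rest on unequal numbers of reads. A read was worth 1.04 in control replicate 1 and 3.26 in control replicate 2, as read from the gaps between the values. The value of a read was below the rounding unit in the Taf4asKO libraries and was not determined. At these values 272 of the lower peaks had at most 10 reads in control replicate 2, where the median was 9 reads, against 27 in control replicate 1. These are reads in peaks, so that total depth and the share of reads in peaks are not separated. The read totals that the study lists were not used here, and the part of read numbers in the genotype ratios was not tested. Both Taf4asKO values lay below both control values in 388 of the 453 peaks, beside 28.8% of all peaks above the minimum, and the values overlapped in the other 65. This follows in part from the rule and is no evidence for it.

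**Figure D1:**
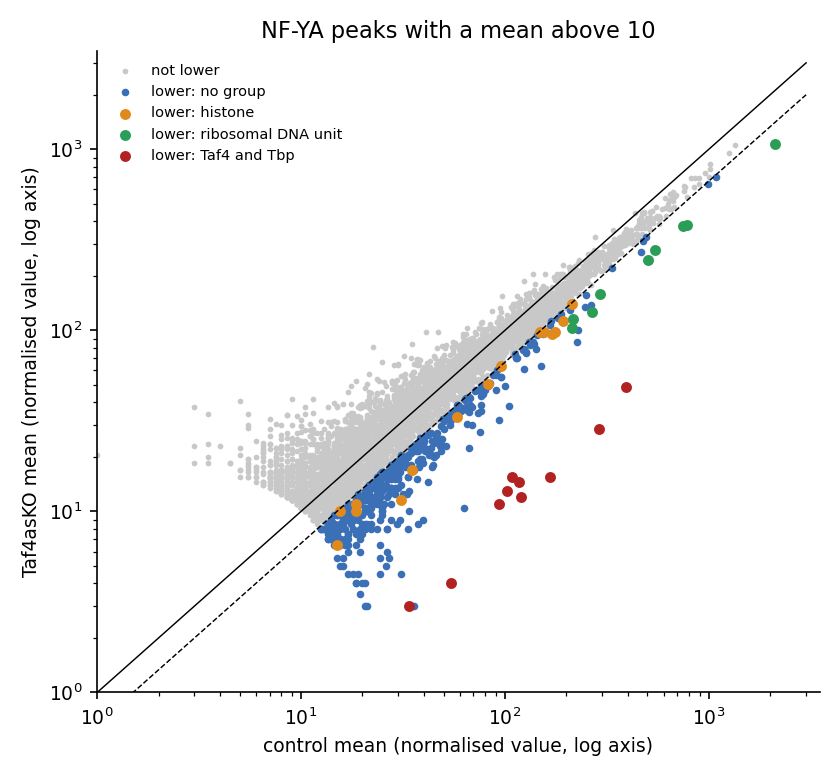
Mean value in the 2 control libraries (horizontal) and in the 2 Taf4asKO libraries (vertical) of the 4689 peaks with a mean above 10, both on log axes. The solid line marks equal means and the dashed line the ratio of 1/1.5, and the 10 peaks inside Taf4 and Tbp lie far below the dashed line, with ratios from 0.0734 to 0.144.

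At the ratio threshold, the peaks just inside were those nearest Hist2h2ac, Pbxip1 and Mir148a with ratios of 0.665, 0.665 and 0.664. Just outside were peaks nearest Tiam1, Hist1h3g and Gm22501 with ratios of 0.67, 0.671 and 0.672. A further 16 peaks had a ratio of exactly 1/1.5 and were left out. At the minimum, peaks nearest Cdk2ap2, Slc29a2 and Olfm1 had means of 10.2 and were kept, whereas 3 peaks with a mean of 10 were not. The peak at Cdk2ap2 had values of 2 and 23 in control against 9 and 7 in Taf4asKO, which shows how little separates a member from a non-member at this level.

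The lower peaks lay less often at gene starts than NF-YA peaks in general. Only 116 of the 453 (25.6%, 95% Wilson interval 21.8 to 29.8) were centred within 1000 bases of an annotated start, whereas 53.3% of all peaks above the minimum were. Introns held 182 lower peaks (40.2%), intergenic sequence 122 (26.9%), exons 22 and untranslated regions 11. The higher peaks were placed alike, with 29.5% at starts and 41.2% in introns. Of the intervals given for shares of peaks, none accounts for the dependence of neighbouring peaks or for the error of the reads. The share at starts was 19.1% in the weakest class of lower peaks and 47.7% in the strongest, against 27.3% and 83.1% of all peaks in these classes, so that it was lower at either end of the signal.

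A gene was assigned to 269 lower peaks (59.4%), against 75% of all peaks above the minimum and 57.6% of higher peaks. The authors assign a gene if its start is within about 10000 bases (the longest distance in their list is 10138, and none in the lower set exceeds 10000). The median distance was 1871 bases in the lower set, 1055 in the higher set and 185 over all. Only 59 of the 269 assigned peaks (21.9%) were within 200 bases of the start, and 75 (27.9%) were over 5000 bases away. Of the lower peaks at starts, 60.3% were centred at or upstream of the start, against 71% of the higher peaks and 76.5% of the peaks between the thresholds.

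The assigned genes were protein-coding for 198 of 269 peaks (73.6%), against 90% for the peaks between the thresholds and 75.6% for the higher peaks. The others comprised 14 lincRNA, 13 antisense, 12 processed pseudogene, 8 rRNA, 7 miRNA, 6 TEC and 3 snRNA genes, and a few other classes. Among the miRNA genes, the peak 3989 bases downstream of the Mir378c start lies in an intron of Samd4 and had values of 60 and 29 in control against 19 and 17 in Taf4asKO. The peak assigned to Mir129-1 had 69 and 62 against 32 and 41. These assignments follow distance alone, and 4 of the 7 miRNA peaks lie inside another gene.

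CCAAT was less frequent in the lower peaks as a whole. In the central 200 bases it was found on either strand in 322 of 453 (71.1%, 66.7 to 75.1), against 85.5% of all peaks above the minimum and 86.3% of the higher peaks. At starts the share was 75%, against 88.3% of the higher peaks and 91.8% of the peaks between the thresholds. Elsewhere it was 69.7%, against 85.5% and 80.0%. By signal, the difference outside the start window from the peaks between the thresholds was uneven. It was small at means of 20 to 50, with 77.9% of lower peaks against 79.4%, and larger from 10 to 20, with 65.7% against 73.5%, from 50 to 100, with 65.6% against 88.5%, and above 100, with 69.6% of 23 against 94.2%. Windows of the same length centred 1000 bases to either side held CCAAT in 22.3% of cases around lower peaks and in 23.3% around all peaks. Most lower peaks thus held the pentamer, but 131 of them held none in this window.

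CAGCTG stood out in the other direction. It was found in 166 of the 453 lower peaks (36.6%, 32.3 to 41.2), but in 17.6% of all peaks above the minimum and in 14% of the higher peaks. Because E-boxes are scarcer at starts, the comparison was also made by place. Outside the start window, 144 of 337 lower peaks (42.7%, 37.6 to 48.1) held CAGCTG, against 25.4% of the peaks between the thresholds (23.2 to 27.7) and 16.5% of the higher peaks (13.2 to 20.6). At starts the shares were 19%, 9.5% and 8.02%, in the same order. Outside the start window, the E-box CACCTG was found in 16.3% of lower peaks, 9.54% of peaks between the thresholds and 6.46% of higher peaks, and CAACTG in 18.7%, 12.1% and 8.01%. CAGATG had the same share of 22% in the lower and the higher peaks, against 17.9% between the thresholds. CACGTG, the form bound by Myc and USF factors, was found in 3.56% of lower, 4.16% of intermediate and 3.1% of higher peaks. These forms were picked after their shares were seen.

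The share with CAGCTG was highest at low ratios outside the start window. It was 42.5% below a ratio of 0.5, 42.9% from there to the threshold, 33.8% up to 0.8, 24.7% up to 1, 21.9% up to 1.25, 23.8% up to 1.5, 15.1% between 1.5 and 2 and 17.1% above, so that it had no steady order above a ratio of 1. In the peaks next to the threshold on the outer side, which are not members, the share thus already exceeded that of the peaks with a ratio near 1. The difference was also seen among weaker peaks of like signal. Lower peaks held it in 46.6% and peaks between the thresholds in 27.9% of the weakest class, and in 46.2% and 27% of the next. Among peaks with a mean above 100 the shares were 13% of 23 lower peaks and 14.4%. Among lower peaks outside the start window, CAGCTG was found in 50% of those without CCAAT and in 39.6% of those with it. Between the thresholds these shares were 38.1% and 22.2%.

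Outside the start window the AP-1 motif TGANTCA was less frequent in the lower than in the higher peaks. It was found in 22.6% of the lower peaks there (18.4 to 27.3) and in 43.2% of the higher ones (38.3 to 48.1), against 31.9% of all peaks. At starts it was found in 8.62% of lower, 6.79% of higher and 3.87% of the peaks between the thresholds, and over both places in 19% of lower and 17.2% of all peaks. The GC box GGGCGG, common at starts, was present in 37.1% of lower peaks at starts, against 57.5% of all peaks at starts. Motifs for TEAD (GGAATG) and RUNX (TGTGGT) were found outside the start window in 19% and 27.3% of lower peaks, 18.4% and 25.6% of higher peaks and 18.1% and 23.7% of all peaks. CANNTG contains CAGCTG and was found in 84.3% of lower, 69.5% of higher and 72.5% of all peaks there.

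**Figure D2:**
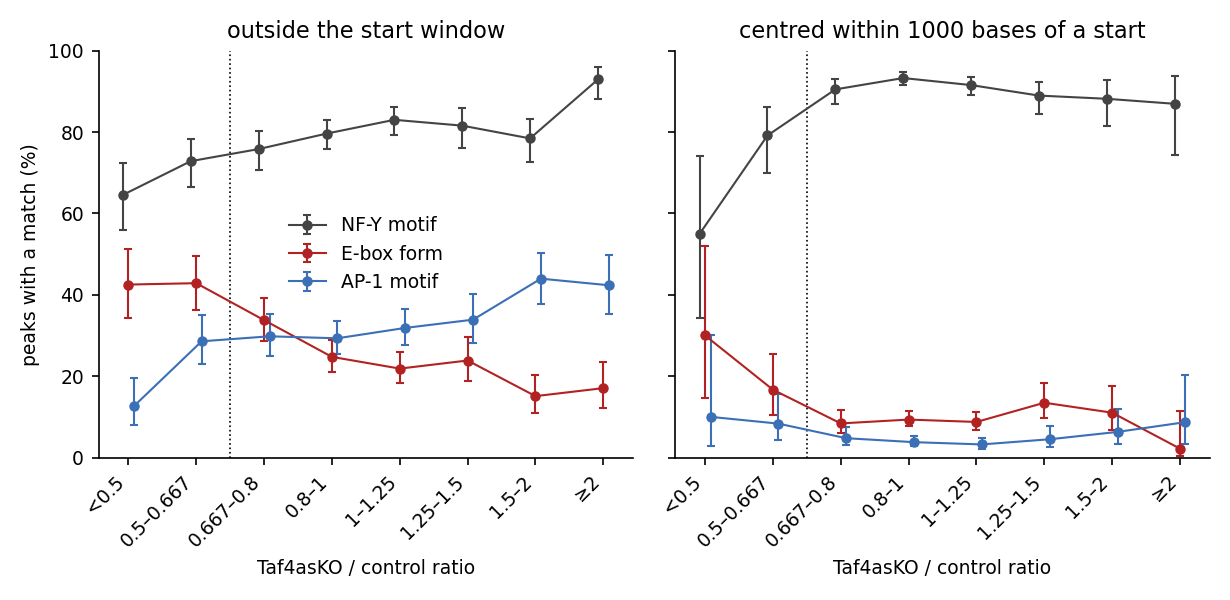
Share of peaks with CCAAT (NF-Y motif), the E-box form CAGCTG or the AP-1 motif in the central 200 bases (vertical, percent, with 95% Wilson intervals) by the ratio of group means, outside the start window (left) and at starts (right). Left of the dotted line are the lower peaks, where CAGCTG reaches 42.9% outside the start window and CCAAT is at 64.6% below a ratio of 0.5.

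The position of the motifs was compared as well. Outside the start window, CCAAT in lower peaks was concentrated at the centre, with 7.2 matches per 1000 bases within 60 bases of the centre and 1.4 at 300 to 500 bases from it. CAGCTG occurred at 2.52 matches per 1000 bases within 60 bases of the centre and at 0.846 at 300 to 500 bases. It was not densest at the centre, with 3.06 at 60 to 160 bases from it, where CCAAT was at 1.78. From the centre outwards, the 3 values for CAGCTG were 1.66, 1.47 and 0.624 in the peaks between the thresholds and 0.84, 1.11 and 0.523 in the higher peaks. The median GC content was 53% in lower and 52% in higher peaks, against 57% between the thresholds. The median width was 198, 195 and 240 bases, and the median number of CpG in the window was 3, 3 and 10, in the same order.

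**Figure D3:**
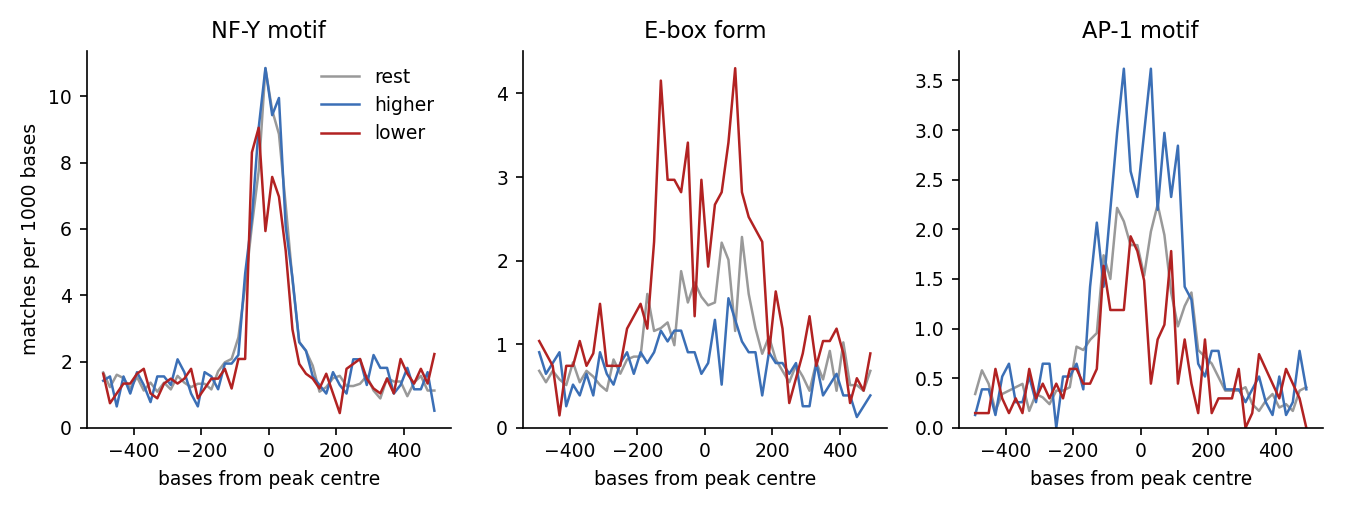
Matches per 1000 bases (vertical) to CCAAT (NF-Y motif), the E-box form CAGCTG and the AP-1 motif by distance from the peak centre in bases (horizontal, bins of 20 bases), for lower peaks, higher peaks and peaks with a ratio between the thresholds, all outside the start window. The CAGCTG curve of the lower peaks is raised up to about 160 bases from the centre, with its highest bins off the centre. CCAAT is gathered within about 60 bases of the centre in the lower peaks and reaches farther in the other sets. In the bin from -80 to -60 bases it had 2.08 matches per 1000 bases in lower peaks. The higher peaks had 4.65 there and those between the thresholds 4.26.

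Peaks inside the genes Taf4 and Tbp made up 10 of the 12 lowest ratios with a control mean of at least 20. All 7 peaks inside Taf4 and all 3 inside Tbp were lower, with ratios from 0.0734 to 0.144. The genotypes were apart in 388 of the 453 lower peaks and in all 10 of these. The strongest, over the end of the coding sequence in exon 15 of Taf4, had values of 366 and 417 in control against 35 and 62 in Taf4asKO. The peak in exon 8 of Tbp had 144 and 189 against 12 and 19, and that in exon 7 had 50 and 59 against 1 and 7.

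These peaks were unlike the rest of the set in position. The 7 Taf4 peaks touched exons 1, 2, 3, 7, 8 and 15, the last with 2 peaks, and none touched exons 11 or 12, which are removed in Taf4asKO. The 3 Tbp peaks touched exons 7, 8 and 9 of 9. Several end at or close to an exon boundary. In the first transcript of Taf4 the peak in exon 1 covers bases 1152 to 1230 and that in exon 2 begins at base 1235, and in Tbp the peak in exon 8 ends at base 1167 and that in exon 9 begins at base 1168. Only 1 of the 10 held CCAAT. A peak 248 bases from the Taf4 start, outside the gene, had 14 and 20 in control against 10 and 14 in Taf4asKO and was not lower. Of the 15 other peaks above the minimum within 5000000 bases of Taf4, 1 was lower, and their median ratio was 0.968. The authors had removed spliced reads before counting. Why reads gathered on these exons was not tested.

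A peak on chromosome 2 near 5031425F14Rik, made of the telomere-like repeats shown above, had a ratio of 0.0833, which falls among those of Taf4 and Tbp. Its values were 13 and 59 in control against 0 and 6 in Taf4asKO, so the control libraries disagreed widely. Repeats were otherwise rare. Only 10 of 453 lower peaks (2.21%) had over 50% of their bases marked as repeats, against 1.86% of all peaks above the minimum.

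A second group lay over ribosomal RNA sequence on chromosome 17, in 5747 bases annotated as Gm26917, Gm42418, AY036118 and CT010467.1. All 9 peaks there were lower, with ratios from 0.475 to 0.546 and no CCAAT. The strongest lower peak of all was among them, with 1298 and 2919 in control against 806 and 1320 in Taf4asKO. In these peaks replicate 2 exceeded replicate 1 in both genotypes, with a median factor of 2.25 in control and 1.64 in Taf4asKO, and the genotypes were apart in only 3 of the 9. The difference between replicates was thus of the size of that between genotypes. The authors filtered ribosomal reads before counting, and the part of this filter in the result was not tested.

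Histone genes had many lower peaks, of which 14 lay at starts and 1, that of Hist1h1d, did not. The replication-dependent histones, which package new DNA in S phase and carry CCAAT in many of their promoters, had 47 peaks above the minimum at 39 genes. Of these 15 were lower (31.9%, beside 9.66% of all peaks) and 1 was higher, and the median ratio of the 47 was 0.733. All 15 held CCAAT. The genotypes were apart in all 15, beside 388 of the 453 lower peaks and 28.8% of all peaks above the minimum. This follows in part from the rule. Hist1h2bn had values of 182 and 205 in control against 113 and 112 in Taf4asKO, Hist1h2bl had 172 and 170 against 94 and 98, and Hist1h2ae had 152 and 199 against 105 and 91. The lowest ratio, 0.371, was at Hist2h3c1 with 26 and 36 against 11 and 12. Both core histones and linker histones (Hist1h1b, Hist1h1c and Hist1h1d) were among the 15. Most of the neighbouring histone peaks were above the threshold, as 32 of the 47 were not lower. After the ratios were divided by 0.857, the median ratio of peaks reaching a mean of 100, 7 of the 15 were still lower, while 56.5% of all lower peaks were and 5.46% of all peaks above the minimum.

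Genes of the muscle lineage had lower peaks as well. The list of MuSC and myogenic genes had 13 peaks above the minimum, of which 6 were lower (46.2%, beside 9.66% of all peaks) and 1 was higher, with a median ratio of 0.769. Myod1, the master regulator of myogenesis, had 51 and 52 at its start in control and 26 and 20 in Taf4asKO. Cdh15, which encodes M-cadherin, had 61 and 36 against 27 and 16 in an intron. Mymk, which encodes the fusion factor myomaker, had 23 and 26 against 9 and 15, and the troponin gene Tnnt3 had 17 and 16 against 11 and 5. The exception was Mef2d, with 24 and 13 in control against 43 and 62 in Taf4asKO at a peak 1998 bases upstream, while the peaks of Pax3 and Six4 had ratios of 1.14 and 0.88.

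The Myod1 locus held 4 lower peaks on 43584 bases, of which the farther upstream pair had 1700025L06Rik as the nearest gene. The strongest, 38.9 kb upstream of the Myod1 start, had 478 and 470 in control against 316 and 308 in Taf4asKO. The peak 34.9 kb upstream had 31 and 68 against 32 and 33, where 1 control value fell below both Taf4asKO values. The peak 4.2 kb downstream of the start had 15 and 29 against 16 and 5, and here too the genotypes overlapped. The upstream pair had ratios of 0.658 and 0.657. Neither peak of this pair was lower after the ratios were divided by 0.857, as for the histones above. The peaks at the start and downstream of it, with ratios of 0.447 and 0.477, were still lower. A peak 55 kb upstream had 45 and 62 against 47 and 52, one 26 kb upstream had 7 and 36 against 21 and 10, and neither was lower.

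Several genes of the sarcomere and of muscle metabolism, named here after their values were seen, also had lower peaks. The start of Ttn, the gene of titin, had 75 and 52 in control against 41 and 33 in Taf4asKO. The nebulin gene Neb had 71 and 59 against 29 and 32 at one intronic peak and 42 and 39 against 23 and 20 at another, but a further one with 57 and 65 against 66 and 54 was not lower. Within Mb, the myoglobin gene, an intronic peak had 26 and 23 against 6 and 5 and a weak one 13 and 16 against 5 and 8. The strongest peak in Mb, with 118 and 91 against 77 and 89 and a ratio of 0.794, was not lower, nor was one with a ratio of 1.29. Upstream of Atp2a1, the calcium pump of fast muscle, the values were 33 and 7 against 5 and 3. A weak peak in Mylpf had 19 and 10 against 7 and 7, but the strong peak at the Mylpf start had 640 and 620 against 469 and 533, with a ratio of 0.795, and was not lower. Over all peaks assigned to or inside the genes of this kind, 12 of 25 were lower (48%, beside 9.66% of all peaks) and 1 was higher, a count that is inflated by the way the genes were found.

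The strong lower peaks with CCAAT at starts belonged to genes of various kinds. Tomm40, the channel of the mitochondrial outer membrane, had 1003 and 1177 in control against 676 and 736 in Taf4asKO. Fbxo24 had 903 and 1070 against 610 and 679. Lgals1, which encodes galectin-1, had 454 and 479 against 260 and 279, and Prmt5, an arginine methyltransferase, had 318 and 352 against 217 and 222. The replicates of each genotype were close in these peaks. The genotypes were apart in all 4, beside 38 of the 44 lower peaks and 59% of all peaks with a mean above 100. The 4 ratios were between 0.578 and 0.656, and the median ratio of all peaks with a mean above 100 was 0.856. None of the 4 was lower after the ratios were divided by 0.857, as for the histones above.

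Genes of the cell cycle and DNA replication had 4 lower peaks. Of 21 peaks of the cell division list, 2 were lower (9.52%, beside 9.66% of all peaks), at Ccna2 and Ccne1. The Ccne1 peak, 4782 bases upstream of this cyclin gene, had 182 and 117 in control against 62 and 65 in Taf4asKO. Of 15 peaks of the DNA replication list, 2 were lower (13.3%). Pcna, the sliding clamp, had 125 and 137 against 79 and 93 at a peak 532 bases from its start, but 56 and 55 against 48 and 80 at one 78 bases from it, which was not lower. Rrm2, a ribonucleotide reductase subunit, had 36 and 29 against 18 and 17 at a peak 1315 bases from its start, while its other peaks had ratios of 0.902 and 0.831. None of the 21 ER folding, 9 heat shock, 8 DNA damage and 7 nuclear lamina peaks was lower. The cell division, DNA replication and ER folding lists had 1 higher peak each.

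Outside Taf4 and Tbp, several of the lowest ratios were in introns. The intronic peak of Mfng, a glycosyltransferase that modifies Notch, had 54 and 72 in control against 11 and 10 in Taf4asKO, and that of Mycl, a Myc family member, had 26 and 36 against 4 and 5. In an intron of Luc7l3 the values were 26 and 16 against 3 and 3, and in an intron of Tead4, which encodes a partner of YAP, 28 and 13 against 3 and 3. A strong intergenic peak with a ratio below 1/2, on chromosome 17 near AC138228.3, had 237 and 215 against 88 and 85. The CCAAT motifs of the Mfng, Mycl and chromosome 17 peaks are shown above.

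**Figure D4:**
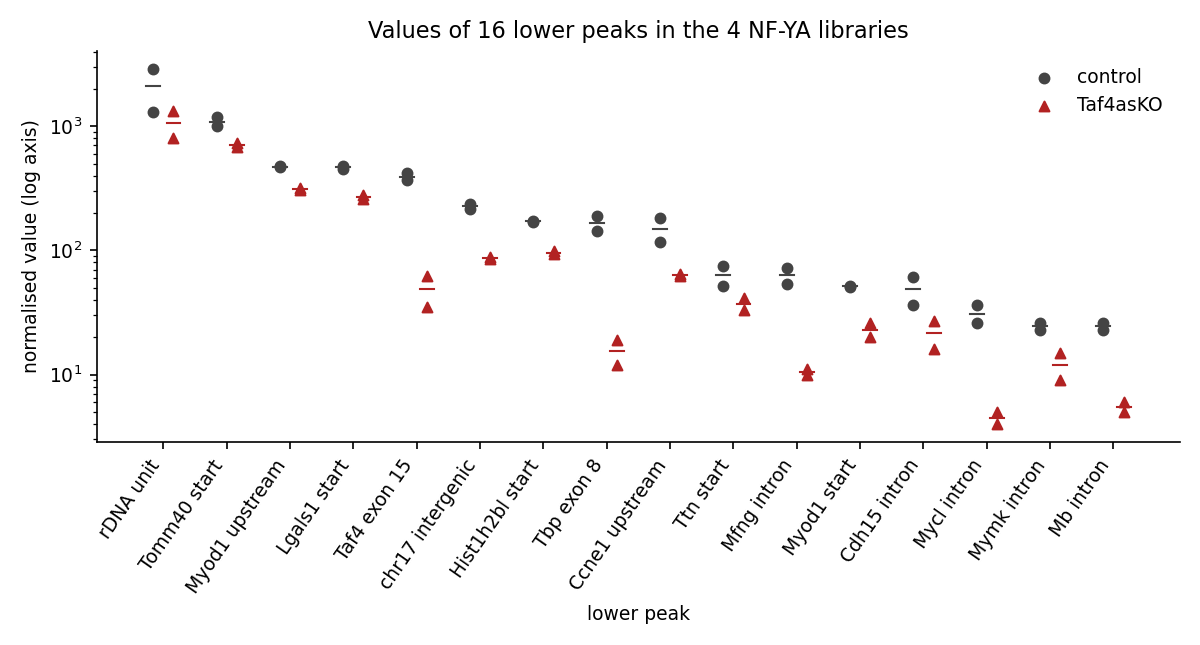
Normalised values (log axis) of 16 lower peaks in each of the 4 NF-YA libraries, with a short line at the mean of each genotype. Circles stand for control and triangles for Taf4asKO, and the genotypes do not overlap except in the rDNA unit, where the control value of 1298 lies below the Taf4asKO value of 1320.

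Beside 9.66% of all peaks, 3 of 8 matrix and adhesion peaks were lower (Lama5, Col1a1 and Lgals1), 2 of 14 Notch, Wnt and TGF-beta peaks (Heyl and Mfng), 2 of 17 immediate-early peaks (Mycl and Junb), 1 of 24 chromatin modifier peaks (Prmt5), 1 of 19 sterol and lipid peaks (Scd2) and 1 of 6 mitochondrial import peaks (Tomm40). Higher peaks numbered 2 each in the immediate-early and chromatin modifier lists, 1 each in the matrix and Notch lists, and 0 in the sterol and mitochondrial import lists. Of the 10 peaks assigned by distance to genes of the TFIID and NF-Y list, 1 was lower, in Taf4. The other peaks inside Taf4 and Tbp have no assigned gene and are not counted in this list. The NSL complex, a chromatin-modifying complex with the acetyltransferase MOF, had 2 lower peaks of 6. The lower peak of Kansl2 was a weak second peak 167 bases from its start, with 9 and 20 in control against 9 and 8 in Taf4asKO and an overlap at 9. The strong Kansl2 peak 108 bases from the start had 168 and 163 against 150 and 176, a ratio of 0.985, and was not lower. The peak upstream of Phf20 had 17 and 20 against 12 and 8. Markers of endothelial, fibro-adipogenic, immune and glial cells had 0 peaks above the minimum in their lists. Absence of NF-YA peaks at a gene does not tell whether it is expressed. Expression was not measured, so the labelled cell type was not checked.

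The lower peaks were grouped along the chromosomes, mainly at short distance. Of the 453, 66 had another lower peak within 10000 bases (14.6%), against 3.16% of the 4236 other peaks above the minimum. Within 100000 bases the shares were 23.6% and 12.3%, and within 1000000 bases 58.3% and 50%. The 107 peaks with a neighbour within 100000 bases formed 42 runs, of which 32 were pairs. The runs of 4 or more were the rRNA unit with 9, Taf4 with 7, and 4 each at Myod1 and in the histone clusters near Hist1h2bl and Hist1h2bf. In the histone runs 4 of 7 and 4 of 6 peaks were lower. The shares with a neighbour include the peaks of the rRNA unit, Taf4, Tbp and the histones, and were not computed without them. Genes with 2 lower peaks included Psmc3, Rad51ap1, Traf4, Cirbp, Foxn4, Fopnl, Mical2 and Cavin1. Cavin1, which is needed for caveolae, had 91 and 68 at its start in control and 46 and 48 in Taf4asKO, and 33 and 36 against 18 and 27 in an intron.

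Among chromosomes, the share of lower peaks was highest on chromosome 13 with 28 of 181 (15.5%), chromosome 2 with 53 of 354 (15%) and chromosome 17 with 33 of 275 (12%). Without the peaks of Taf4, Tbp, the ribosomal unit and the histones, these shares were 11.6%, 13.3% and 7.98%, beside 9.06% over all chromosomes. The lowest shares were on chromosome 16 with 8 of 147 (5.44%) and the X chromosome with 6 of 96 (6.25%). The excess on chromosomes 13 and 17 was thus made up in large part by a few loci, whereas chromosome 2 stayed highest without them.

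**Figure D5:**
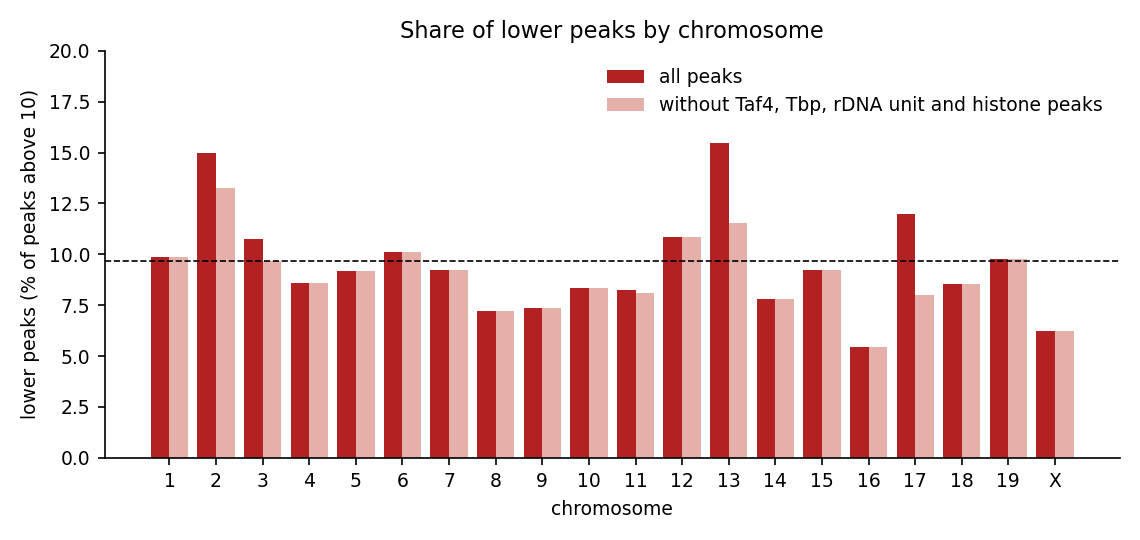
Share of peaks with a mean above 10 that were lower (vertical, percent) by chromosome, for all peaks (dark bars) and without the peaks of Taf4, Tbp, the rDNA unit and the histone genes (light bars). The dashed line marks 9.66%, the share over all chromosomes.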

How the data were processed

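NF-YA CUT&RUN was analysed in 2 control and 2 Taf4asKO libraries. Per the submitters' processing notes, the authors trimmed reads with Trimmomatic 0.39, aligned them with STAR 2.7.11a to mm10, removed duplicates with Picard 3.1.1 as well as spliced, multi-mapping, ribosomal and mitochondrial reads, called peaks against IgG with MACS and merged them. The deposited score of each peak is its read number after the authors' DESeq2 1.36.0 normalisation, rounded. The authors' methods text names other versions of some of these tools for CUT&RUN. The deposited distance is from the peak centre to the start of the assigned gene.

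Groups came from the labels. Peaks were placed with GENCODE M21 (start within 1000 bases, then UTR, exon, intron, intergenic), and motifs were searched on both strands in the central 200 bases of GRCm38. Of 3978 assigned gene IDs, 3972 were found there. The value of a read was the largest step whose rounded multiples held 99% of the values up to 400 in a library, a search tested on simulated data. Intervals are 95% Wilson intervals of counting error. The members and gene lists were chosen with earlier results of these data known. Named peaks are the 12 lowest ratios (control mean at least 20), the 12 highest control means, genes with 2 or more lower peaks, peaks of the gene lists, Taf4 and Tbp, and those next to the thresholds, and any others were named after their values were seen. No test was run, since the rule used the genotype ratio. Alternatives were other scalings, thresholds and windows and leaving out each library. Python 3.11.15, pandas 2.3.3 and scipy 1.17.1 were used.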

Additional observations from a re-analysis of the deposited data

How the results depend on the processing

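The number of lower peaks was 453, and 256 after the ratios were centred on the median of peaks reaching a mean of 100, 147 with a ratio below 1/2, 233 with a mean above 20, 806 with no minimum and 144 if both Taf4asKO values had to be beyond the ratio from both control values. Leaving out 1 library gave 462 to 569, of which 307 to 392 were among the 453. The other settings, apart from the pairing given below, stayed within 1.5 times of the number. The share with an assigned gene was 51.7% with a ratio below 1/2 and 52.8% with both libraries beyond the ratio, and 52.6% to 64.1% without 1 library. The share at starts was 20.9% with equal totals, 16.8% after centring, 13.6% below 1/2, 31.8% above 20, 20.7% with no minimum, 16.7% with both libraries beyond the ratio, 20.1% and 31.3% with start windows of 500 and 2000 bases, and 20.1% to 34.5% without 1 library. It was below the share over all peaks above the minimum in each case. The share with CCAAT was 63.3% below 1/2, 77.3% above 20, 62.8% with no minimum, 58.7% in the central 100 bases, and 69.2% to 73.7% without 1 library. The share with CAGCTG, an alternative added after the data were seen, was 31.3% above 20, 41.7% with both libraries beyond the ratio, 16.8% in the central 100 bases, and 30.4% to 38.9% without 1 library, and in each setting of the definition of lower peaks it exceeded the 15.2% to 16.9% of the other peaks. Lower peaks with another nearby numbered 66 within 10000 and 264 within 1000000 bases. Replicate numbers recur in both genotypes, though no source says that they pair the libraries. With a replicate block, chosen after the data were seen, 444 peaks were lower by the mean log ratio of same-numbered libraries, 435 of them among the 453, and 217 if both of these ratios were below the threshold, of which 21.2% lay at starts. Both ratios were below 1 in 407 of the 453 lower peaks, including all 9 of the ribosomal unit. The blocked shares at starts, with an assigned gene, with CCAAT and with CAGCTG were otherwise within the Wilson intervals of the reported ones. Weak peaks rest on few reads, most of all in control replicate 2 among the controls.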
